A study of Mus musculus with 12 samples.

Results

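The immunity-related GTPases (IRG) of cultured mouse oligodendrocyte precursor cells (OPCs) were followed in total RNA-seq of untreated, dexamethasone-treated and IFN-γ-treated cultures. The family was taken as a fixed list of 8 genes, Irgm1, Irgm2, Igtp, Iigp1, Ifi47, Tgtp1, Tgtp2 and Gm12250, out of 55536 genes in the annotation, and all 8 were among the 17919 genes with enough reads to test. OPCs came from brains of pups aged P4 to P6, several to a pool, and were isolated by a Sox10-GFP reporter or by CD140a beads (the labels do not say which was used for which culture), and were kept dividing in PDGFaa and bFGF, which all groups received. Ctr-OPCs had no further treatment, Dexa-treated OPCs received 1 µM of the synthetic glucocorticoid dexamethasone for 48 h, and IFN-γ-treated OPCs received 100 ng/ml of the cytokine for 48 h, with 4 libraries from different litters in each group. The labels name EAE as mouse model for every library, although the cells came from pups.

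IRG proteins are interferon-inducible GTPases of cell-autonomous immunity. They settle on the membranes of vacuoles that enclose intracellular pathogens such as Toxoplasma, and help to break them open. Irgm1, Irgm2 and Igtp (also called Irgm3) form the regulatory GMS group, which sits on the membranes of the cell itself and holds the effectors inactive. Iigp1 (Irga6), Ifi47 (Irgd), Tgtp1 and Tgtp2 (both Irgb6) and Gm12250 (Irgb10) form the effector GKS group. The group names come from the nucleotide-binding loop, where the regulators have methionine in the place of the usual lysine.

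This loop was read from the GENCODE M21 transcripts (GRCm38) of the 7 members on chromosome 11, as 24 bases found by the codons for glycine, any 4 residues, glycine, methionine or lysine, and serine. The capitals mark the codon that separates the groups, ATG for methionine or AAG for lysine. The loop lies in annotated coding exons except in Gm12250, which GENCODE lists as a processed pseudogene without a coding sequence and in which the run was found in a forward reading frame of its exon.
Irgm1 (chr11:48866761-48866784, minus strand): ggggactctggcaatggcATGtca
Irgm2 (chr11:58219695-58219718, plus strand): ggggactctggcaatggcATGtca
Igtp (chr11:58206275-58206298, plus strand): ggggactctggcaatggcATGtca
Ifi47 (chr11:49095648-49095671, plus strand): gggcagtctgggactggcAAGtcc
Tgtp1 (chr11:48987667-48987690, minus strand): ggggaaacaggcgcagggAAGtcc
Tgtp2 (chr11:49059534-49059557, minus strand): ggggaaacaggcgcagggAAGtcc
Gm12250 (chr11:58187981-58188004, plus strand): ggggagacaggggcagggAAGtcc
The 3 regulators had the same 24 bases, as did Tgtp1 and Tgtp2, and every run had the codon its group is named for.

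The promoters are shown because the members moved together under IFN-γ. RefSeq (GRCm38.p6) gave a window of 250 bases before to 50 bases after the start site for 7 of the 8 members, all but Iigp1. These windows were searched on both strands for GAAANNGAAA, the core of the interferon-stimulated response element (ISRE, bound by IRF factors), and for TTCNNNGAA, the core of the gamma-activated site (GAS), which reads the same on both strands. The stretch around the matches is printed below, with every match in capitals, and ends at or before the start site.
Irgm1 (chr11:48871421-48871470, minus strand): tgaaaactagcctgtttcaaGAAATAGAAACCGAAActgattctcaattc
Irgm2 (chr11:58214882-58214942, plus strand): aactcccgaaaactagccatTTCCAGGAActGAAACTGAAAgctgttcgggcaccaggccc
Igtp (chr11:58199491-58199551, plus strand): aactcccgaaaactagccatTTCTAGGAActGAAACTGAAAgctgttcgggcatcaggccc
Tgtp1 (chr11:48992294-48992354, minus strand): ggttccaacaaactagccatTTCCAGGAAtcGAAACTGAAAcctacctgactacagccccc
Tgtp2 (chr11:49064253-49064313, minus strand): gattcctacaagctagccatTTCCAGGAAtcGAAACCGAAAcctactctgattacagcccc
Gm12250 (chr11:58183732-58183826, plus strand): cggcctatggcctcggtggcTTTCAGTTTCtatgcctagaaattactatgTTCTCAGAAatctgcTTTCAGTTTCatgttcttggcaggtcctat
The ISRE core was present in 6 of the 7 windows, with overlapping matches in Irgm1 and matches on the other strand in Gm12250, against 3.44% of all 32851 promoter windows. The GAS core was present in 5 of 7, against 8.30% of all windows, and lay within 20 bases of an ISRE core in the same 5, an arrangement held by 0.161% of all windows. Ifi47 had neither run of letters in its window. The GENCODE genes Irgm1 (from 48871683, minus strand), Tgtp1 (from 48994172, minus strand) and Irgm2 (from 58199618, plus strand) begin upstream of their windows. Not every transcript counted for these genes therefore starts at the RefSeq site. A match is a description of letters and does not show that a factor bound there. Over the genes tested, the ISRE core was in the windows of 3.64% of the 11429 genes with a window. It was in those of 10.9% of the 1014 such genes that rose with IFN-γ in the test described next. Among the 369 that rose by 1.5 or more (log2), 21.1% had the ISRE core, 17.3% the GAS core and 4.07% both within 20 bases. These sets include members of the family. Guanylate-binding proteins, described below, had the ISRE core in 5 of 5 genes with a window, the GAS core in 2 and both within 20 bases in 0. Other IRG or IRG-like genes had the ISRE core in 2 of 5. The windows of Irgm2 and Igtp were identical at 91.1% of 271 aligned positions, and those of Tgtp1 and Tgtp2 at 72.3% of 307. The printed runs of Irgm2, Igtp, Tgtp1 and Tgtp2 also resemble each other around both cores. Their matches are therefore not independent of each other.

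IFN-γ raised the summed IRG reads from a trace to about 1% of all reads assigned to genes. The 8 genes together took 555, 859, 942 and 407 reads in Ctr replicates 1 to 4, and 281411, 361000, 310962 and 302060 reads in IFN-γ replicates 1 to 4. No control library came near any IFN-γ library. As a share of all reads in genes this was 0.00162% ± 0.000293 (SD, n = 4) without treatment and 1.007% ± 0.135 (SD, n = 4) after IFN-γ. Counts normalized for depth gave a sum of 533 ± 85.8 for the controls and of 342649 ± 46210 after IFN-γ (SD, 4 libraries each), a ratio of means of 643. The regulators rose 423-fold and the effectors 1117-fold as sums. In Ctr-OPCs the sum of the regulators was mostly Irgm1, at 274 of 364 normalized counts. Irgm2 and Igtp together rose 926-fold, more than the effector Gm12250 at 748-fold, and the other effectors rose further. The fold changes of the groups thus overlapped. In bulk cultures, a change in the number of cells that express a gene and a change in the RNA per cell cannot be told apart.

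All 8 members rose in IFN-γ-treated over Ctr-OPCs by DESeq2's Wald test at an adjusted p under 0.05, with a median log2 fold change of 9.94, beside a median of -0.02 over all genes tested. Of the 17919 genes tested, 8.02% were called higher in IFN-γ-treated OPCs (1437 genes, or 2717 with the replicate number as a block), and 3.18% were called higher by 1.5 or more on the log2 scale, which all members also passed. Every IFN-γ library was above every Ctr library for 8 of 8 members and for 8.66% of the genes tested. DESeq2's adjusted p-values were at most 9.3e-221, and 5 of the 8 were too small for the software to hold. Those of edgeR's quasi-likelihood test, which gives less extreme values at this number of libraries, were 3.3e-10 to 2.5e-08.

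**Figure D1:**
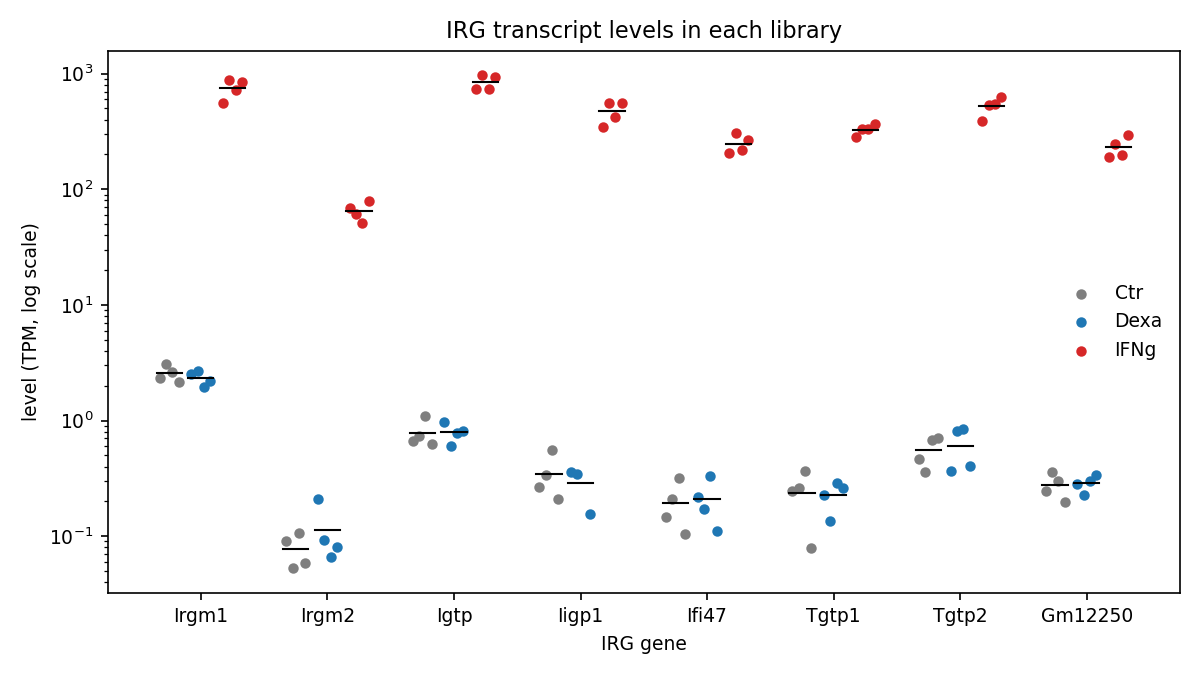
Level of each IRG gene in each library, as TPM (a level scaled for transcript length and library depth) on a log axis. Each point is a library of Ctr-OPCs (grey), Dexa-treated (blue) or IFN-γ-treated OPCs (red), and black lines are group means. The IFN-γ libraries lie between 51.2 TPM (Irgm2) and 965 TPM (Igtp), and the Ctr libraries at or below 3.06 TPM. Iigp1 has 3 Dexa libraries.

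Among the regulators, Irgm1 was the member with the highest level in unstimulated cells. Its level per transcript length was 2.35, 3.06, 2.65 and 2.17 TPM in Ctr replicates 1 to 4 and 559, 883, 722 and 839 TPM in IFN-γ replicates 1 to 4. The control values stood on 223 to 492 reads, so that the low level was measured well above the counting limit. Its log2 fold change of 8.01 ± 0.15 (SE) was the smallest of the 8, a 259-fold rise.

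Igtp had 0.668, 0.741, 1.10 and 0.631 TPM in Ctr replicates 1 to 4, from 58 to 149 reads. In IFN-γ replicates 1 to 4 it reached 741, 965, 736 and 932 TPM, and rose by 9.90 ± 0.18 (log2, SE). Irgm1 was above Igtp in 4 of 4 Ctr and 4 of 4 Dexa libraries, and Igtp was above Irgm1 in 4 of 4 IFN-γ libraries.

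Irgm2, whose product acts at the Golgi, was the lowest member in every group by its mean. It had 0.0901, 0.0529, 0.107 and 0.0590 TPM in Ctr replicates 1 to 4, from only 10 to 26 reads. In IFN-γ replicates 1 to 4 it had 68.6, 61.4, 51.2 and 79.2 TPM, below every other member in each of these libraries, and its log2 fold change was 9.54 ± 0.30 (SE). The first exon of Irgm2-201 lies next to the start of Igtp, the genes overlap on the plus strand, and 9.16% of the 31-base words of Irgm2 transcripts also occur in Igtp. Counted as 1 gene, Irgm2 and Igtp rose by 9.85 ± 0.20 (log2, SE).

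The effectors started lower than Irgm1 and rose further. Iigp1, on chromosome 18 and apart from the other members, had 0.269, 0.338, 0.557 and 0.209 TPM in Ctr replicates 1 to 4. In IFN-γ replicates 1 to 4 it had 348, 556, 425 and 558 TPM, and its log2 fold change was 10.26 ± 0.30 (SE). The control level was lowest in replicate 4 and highest in replicate 3, and no control came near an IFN-γ library.

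Ifi47 had 0.145, 0.208, 0.316 and 0.104 TPM in Ctr replicates 1 to 4, from 8 to 36 reads. It reached 206, 305, 217 and 265 TPM in IFN-γ replicates 1 to 4, a log2 fold change of 10.15 ± 0.26 (SE). Exons of Ifi47 overlap the olfactory receptor gene Olfr56 on the same strand, and 3.32% of its 31-base words occur in Olfr56 too, so reads of these genes may not be fully told apart.

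Tgtp1 and Tgtp2 encode near-identical proteins and share most of their 31-base words, so Salmon divided reads of shared sequence by estimate. The number of such reads was not measured. Only 15.6% of the 31-base words of Tgtp1 transcripts and 9.46% of those of Tgtp2 occurred in no other gene, against 84.1% to 100% for the other members. Their sum is therefore the firmer value. It was 0.708, 0.615, 1.05 and 0.786 TPM in Ctr replicates 1 to 4, and 675, 864, 877 and 999.7 TPM in IFN-γ replicates 1 to 4. Counted as 1 gene, the pair rose by 10.11 ± 0.23 (log2, SE). Split as deposited, Tgtp1 rose by 10.33 ± 0.30 and Tgtp2 by 9.99 ± 0.24 (log2, SE).

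Tgtp1 received 34.6%, 37.7%, 35.1% and 14.6% of the reads of the pair in Ctr replicates 1 to 4. In IFN-γ replicates 1 to 4 it received 41.3%, 37.0%, 36.1% and 35.0%. The low value of Ctr replicate 4 stood on 11 of 73 reads, and the other 3 Ctr libraries lay in or next to the IFN-γ range. The means were 30.5% ± 10.7 in Ctr-OPCs, 36.5% ± 6.22 in Dexa-treated and 37.3% ± 2.73 in IFN-γ-treated OPCs (SD, n = 4 each), with ranges that overlapped.

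Gm12250 was quantified on 1 annotated exon of 1274 bases (chr11:58187739-58189012, plus strand), whereas the RefSeq promoter printed above lies upstream of it. All of its 31-base words were its own. It had 0.245, 0.357, 0.301 and 0.199 TPM in Ctr replicates 1 to 4, and 189, 245, 197 and 293 TPM in IFN-γ replicates 1 to 4. The log2 fold change was 9.52 ± 0.23 (SE), close to that of Irgm2.

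**Figure D2:**
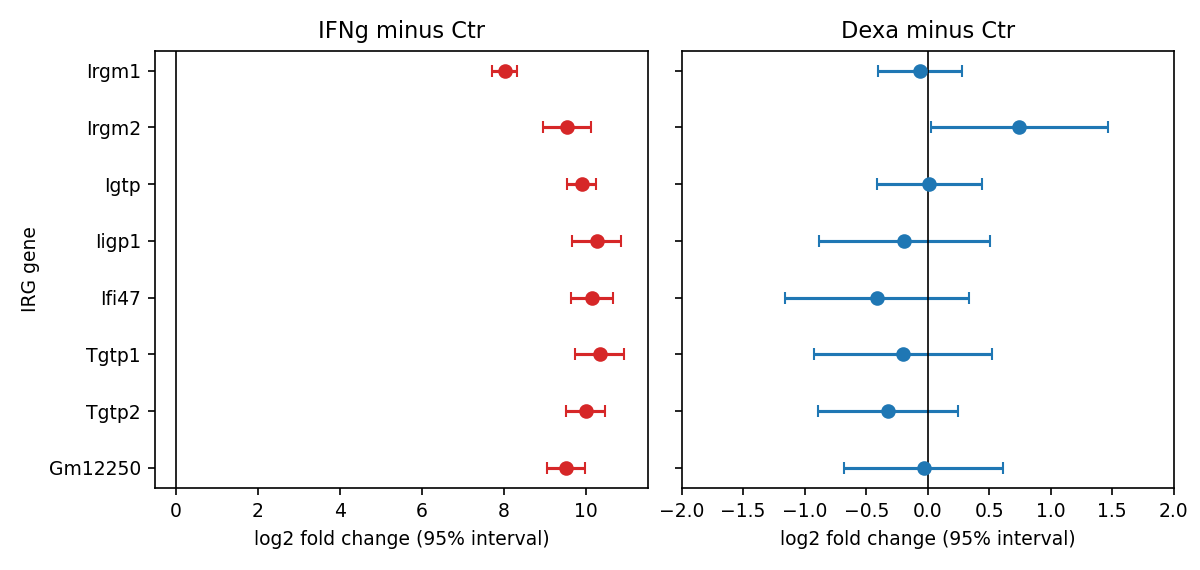
Log2 fold change of each IRG gene in IFN-γ-treated OPCs (left, 4 against 4 libraries) and in Dexa-treated OPCs (right, 3 against 4 libraries) relative to Ctr-OPCs, from DESeq2. Points are estimates, bars are 95% intervals and the axes differ between panels. The IFN-γ changes run from 8.01 (Irgm1) to 10.33 (Tgtp1), and the Dexa intervals hold 0 for every gene but Irgm2.

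By fold change, Irgm1 stood apart from the rest. Between libraries of the same replicate number, Irgm1 had the smallest log2 ratio of IFN-γ over Ctr in 4 of 4 pairs, at 7.58, 7.93, 8.18 and 8.33 in replicates 1 to 4. The largest ratio of a pair belonged to Tgtp1 in 3 pairs, with 10.43, 9.69 and 11.76 in replicates 1, 3 and 4, and to Iigp1 in replicate 2, with 10.46. The Tgtp1 ratios rest on the estimated split from Tgtp2, and that of replicate 4 on 11 control reads. With Tgtp1 and Tgtp2 summed, the largest ratio belonged to Ifi47 in replicate 1 (10.39), to Iigp1 in replicates 2 and 4 (10.46 and 11.32) and to the Tgtp sum in replicate 3 (9.65). All 8 ratios were above 0 in each pair. Their median over the members was 9.91, 10.18, 9.47 and 10.28 in replicates 1 to 4. Ctr replicate 3, from the pair with the lowest median, was the highest Ctr library for 5 of 8 members.

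The make-up of the pool was different after IFN-γ. Irgm1 made up 51.3% ± 5.59 of the summed IRG TPM of controls and 21.6% ± 1.23 after IFN-γ (SD, 4 libraries each). Igtp went from 15.5% ± 1.81 to 24.4% ± 1.67, Iigp1 from 6.62% ± 1.78 to 13.5% ± 0.846, Ifi47 from 3.70% ± 1.14 to 7.17% ± 0.566 and Tgtp1 from 4.56% ± 1.85 to 9.54% ± 0.799 of the pool. For these 5 genes the ranges of the groups did not overlap, and the Tgtp1 share rests on the estimated split. Irgm2 (1.54% and 1.91%), Tgtp2 (11.3% and 15.2%) and Gm12250 (5.46% and 6.65%) had ranges that overlapped. The regulators as a group held 63.4% to 71.8% of the pool in Ctr-OPCs, 66.8% to 71.7% in Dexa-treated and 46.6% to 49.2% in IFN-γ-treated OPCs. These shares add up to a fixed total, so that a lower share of Irgm1 and higher shares of the others are the same measurement.

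**Figure D3:**
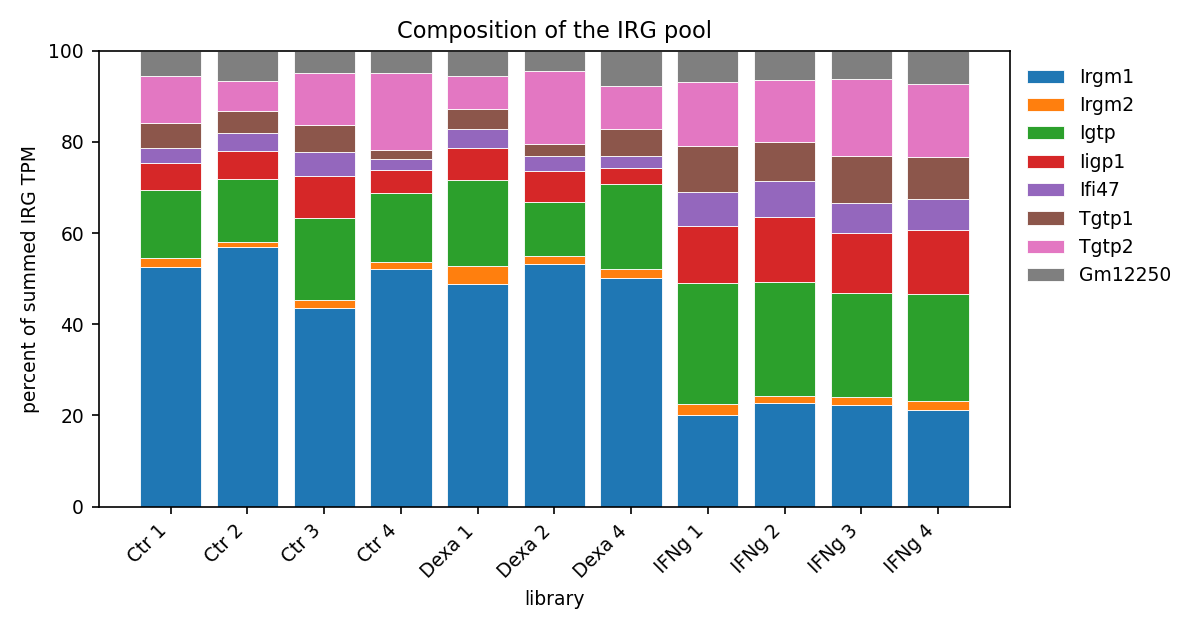
Share of each IRG gene in the summed IRG TPM (percent) of each library, one bar per library with a full table. Irgm1 (blue) takes 43.6% to 57.0% in Ctr-OPCs and 20.1% to 22.8% in IFN-γ-treated OPCs.

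In order of level, Ctr-OPCs ran Irgm1, Igtp, Tgtp2, Iigp1, Gm12250, Tgtp1, Ifi47 and Irgm2 by mean TPM. Only the step from Irgm1 (2.56 TPM) to Igtp (0.784 TPM) was free of overlap between neighbouring genes. IFN-γ-treated OPCs ran Igtp (843 TPM), Irgm1 (751), Tgtp2 (526), Iigp1 (472), Tgtp1 (328), Ifi47 (248), Gm12250 (231) and Irgm2 (65.1 TPM), and only the last step was free of overlap. Among all 55536 genes, the mean TPM of Igtp ranked 59 and that of Irgm1 70 in IFN-γ-treated OPCs, against 12799 and 10245 in Ctr-OPCs. Irgm2, the lowest, ranked 975 with IFN-γ and 19462 without. IFN-γ replicate 1 was the lowest IFN-γ library for 6 of 8 members and replicate 4 the highest for 5 of 8.

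For Dexa-treated OPCs the question was whether a glucocorticoid alone moved the family, and 0 of 8 members were called against Ctr-OPCs by DESeq2 or by edgeR, beside 0.547% of the genes tested (98 genes, or 460 with the replicate number as a block). At an unadjusted p under 0.05, DESeq2 counted 1 member, Irgm2. The table of Dexa replicate 3 was cut off part-way and does not list Iigp1, so the fit used Dexa replicates 1, 2 and 4. The family took 519, 606 and 256 reads in these libraries, or 0.00152% ± 0.000185 of reads in genes (SD, n = 3), inside the Ctr range of 0.00132% to 0.00201%. The libraries of the groups overlapped for 8 of 8 members, and 4.26% of the genes tested had no overlap in either direction. Both counts of members are near the background, so they do not set the family apart from other genes. By log2 fold change the members ran from -0.41 (Ifi47) to 0.75 (Irgm2), with a median of -0.13 beside -0.01 over all genes.

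Irgm1 had 2.504, 2.70, 1.95 and 2.18 TPM in Dexa replicates 1 to 4, all but replicate 3 within the Ctr range. Its log2 fold change was -0.06, with a 95% interval of -0.41 to 0.28, which is the narrowest of the 8. For Igtp the change was 0.01 (-0.42 to 0.44). The effectors had intervals wider than these, with -0.19 (-0.89 to 0.50) for Iigp1, -0.41 (-1.16 to 0.33) for Ifi47, -0.20 (-0.92 to 0.53) for Tgtp1, -0.32 (-0.89 to 0.25) for Tgtp2 and -0.03 (-0.68 to 0.61) for Gm12250. These intervals hold both rises and falls. With 3 Dexa libraries and 5 to 60 reads per effector in each, changes of the effectors may have been missed.

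Irgm2 had 0.210, 0.0929, 0.0657 and 0.0799 TPM in Dexa replicates 1 to 4, from 34, 20, 6 and 8 reads. Replicate 1 was above all Ctr libraries and the others lay among them. The log2 fold change was 0.75 ± 0.37 (SE), with a 95% interval of 0.03 to 1.46, an unadjusted p of 0.042 and an adjusted p of 1 by DESeq2. Within the 3 pairs the log2 ratios were 1.07, 0.96 and 0.36 in replicates 1, 2 and 4. Without Dexa replicate 1 the fitted change was 0.21, and with Irgm2 and Igtp counted as 1 gene it was 0.15. In Dexa replicate 1, 41.8% of the Irgm2 reads were assigned to Irgm2-203, a transcript listed at 0 in every Ctr library.

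Set directly against each other, IFN-γ-treated and Dexa-treated OPCs differed for 8 of 8 members by DESeq2, with log2 fold changes of 8.08 (Irgm1) to 10.56 (Ifi47) and adjusted p-values of at most 2.2e-161, beside 7.66% of the genes tested called higher in IFN-γ-treated OPCs. This comparison shares its IFN-γ libraries with the one against Ctr-OPCs and adds no independent samples on that side.

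Transcripts of the members were compared next, as shares of the reads of each gene. For the 4 genes with at least 20 reads in every Ctr library (Irgm1, Igtp, Iigp1 and Tgtp2), 7 transcripts with at least 5% of the reads were tested, and 0 of 7 differed between IFN-γ-treated and Ctr-OPCs by an unpaired two-sided exact permutation test of 4 against 4 libraries, which cannot go below p = 0.029. The lowest p was 0.40 and the lowest Benjamini-Hochberg adjusted p 0.83, and 0 of the 7 had an unadjusted p under 0.05. Transcripts of the same gene share a total, so the 7 tests were not independent. Iigp1-202 held 22.4% to 97.8% in Ctr-OPCs, where Iigp1 had 24 to 108 reads, so that a large difference could be missed. Both coding transcripts of Irgm1, whose annotated starts lie close together, were used about equally, with Irgm1-201 at 54.8%, 38.1%, 43.4% and 46.2% in Ctr replicates 1 to 4 and at 49.6%, 50.7%, 47.7% and 48.0% in IFN-γ replicates 1 to 4. In Dexa-treated OPCs it had 38.3%, 26.9%, 30.8% and 21.2%, of which only replicate 1 reached into the Ctr range. It was below the Ctr library of the same number in 4 of 4 pairs, a difference that was not tested. The noncoding transcript Irgm1-203 fell below the 5% limit for a test. It held 2.86% to 3.46% of Irgm1 reads in Ctr-OPCs and 1.09% to 1.36% in IFN-γ-treated OPCs, and these ranges did not overlap. The Ctr shares stood on only 6.37 to 16.4 estimated reads, and the difference was not tested.

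Irgm2 had too few control reads for that test, but its IFN-γ libraries divided into unlike pairs. Irgm2-201, the transcript whose first exon lies beside the start of Igtp, had 0.161%, 38.3%, 37.9% and 0.720% of the Irgm2 reads in IFN-γ replicates 1 to 4. Irgm2-202, which starts far downstream beside the RefSeq start site of Irgm2, had 89.9%, 52.8%, 52.6% and 90.2%, and Irgm2-203 had 8.92% to 9.91%. The summed level of Irgm2 varied less, from 51.2 to 79.2 TPM, and was lower in replicates 2 and 3 than in 1 and 4. Salmon assigns reads of shared exons by estimate, and what part this has in the split was not tested.

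**Figure D4:**
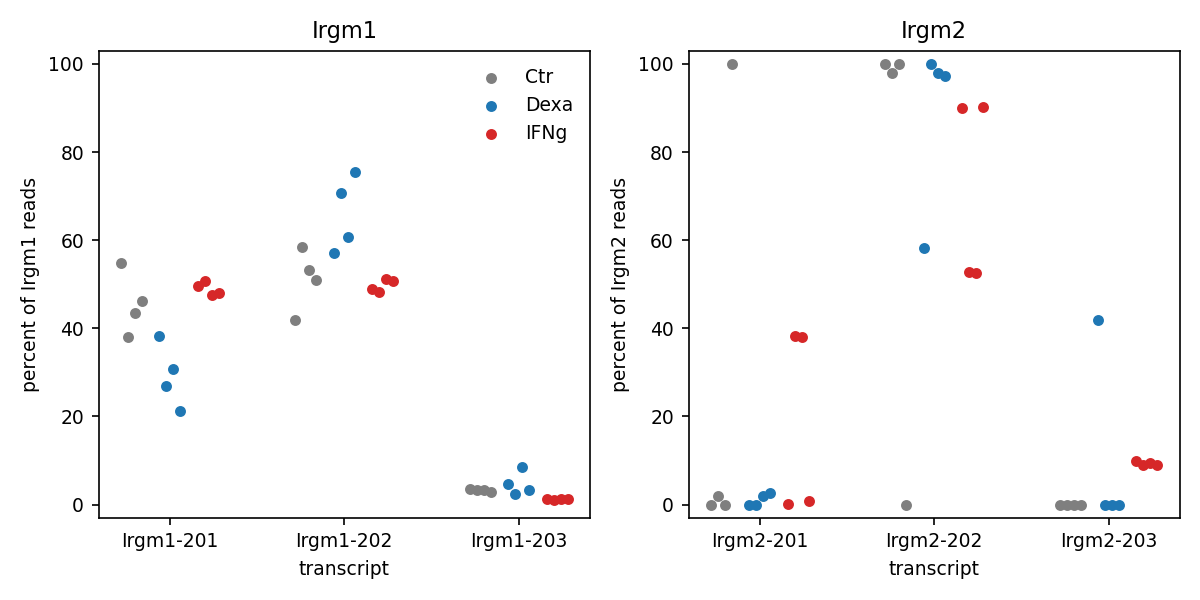
Share of each annotated transcript in the reads of Irgm1 (left) and Irgm2 (right), in percent, with a point per library of Ctr-OPCs (grey), Dexa-treated (blue) and IFN-γ-treated OPCs (red). Irgm1-201 and Irgm1-202 each take about 50% with IFN-γ, while Irgm2-201 is near 38% in replicates 2 and 3 and below 1% in replicates 1 and 4. The Irgm2 shares of Ctr and Dexa libraries stand on 6 to 34 reads.

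Most relatives of the family rose too. Of 7 other IRG or IRG-like genes tested, 6 rose with IFN-γ and 0 fell, with a median log2 fold change of 9.44. Gm4951 went from 6.97 ± 1.74 to 6786 ± 1454 normalized counts (SD, n = 4 each). F830016B08Rik had at most 3 reads in any Ctr library and 2679 ± 560 normalized counts with IFN-γ, at least 1078-fold higher than 3 reads per Ctr library would give. Gm4951 holds 4.63% of the 31-base words of Iigp1, and Gm12185, 9930111J21Rik1 and 9930111J21Rik2 share words with Tgtp1 and Tgtp2. What part reads of the 8 members had in the counts of these relatives was not tested. Irgq, a divergent member of the superfamily, had a log2 fold change of 0.01 ± 0.12 (SE) and was not called. Irgc1 had too few reads to test.

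Guanylate-binding proteins, the larger interferon-inducible GTPases that join IRG proteins at the pathogen vacuole, rose in 10 of 10 cases tested, with a median log2 fold change of 9.86 and a range of 7.28 (Gbp7) to 10.16 (Gbp2). Gbp2 went from 94.5 ± 12.3 to 109018 ± 6547 normalized counts (SD, n = 4 each). Gbp2b had too few reads to test.

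Of 10 genes of IFN-γ signalling, 8 rose and 1 fell, with a median log2 fold change of 3.70. The transcription factors Irf1 and Irf8 had smaller log2 fold changes than the IRG genes, of 6.01 ± 0.10 for Irf1 and 6.78 ± 0.13 for Irf8 (SE). Socs1, the feedback inhibitor of the pathway, rose by 6.08 ± 0.17 from 19.4 ± 1.81 normalized counts. The receptor chain Ifngr1 fell by 0.28 on the log2 scale (SE 0.09, DESeq2 adjusted p = 0.022), a call that edgeR did not make, and Ifngr2 was not called at -0.06 ± 0.18.

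The ubiquitin-like conjugation machinery of autophagy, which places ATG8 proteins on membranes and is needed for IRG proteins to find their target, had 0 of 10 genes called higher and 1 called lower with IFN-γ (2 lower with the replicate block), with a median log2 fold change of -0.08. Over all genes tested, 8.02% were called higher and 4.83% lower, so that these counts are near the background. The gene that fell without the block was Map1lc3a, an ATG8 protein, from 668 ± 73.7 to 398 ± 61.9 normalized counts (SD, n = 4 each). Of 3 genes for ubiquitin ligases and adaptors at the vacuole, Trim21 rose by 4.57 ± 0.16 (log2, SE) and Traf6 (-0.11 ± 0.17) and Sqstm1 (0.07 ± 0.12) were not called. In Dexa-treated OPCs 0 genes of any of these lists were called by DESeq2 or edgeR.

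**Figure D5:**
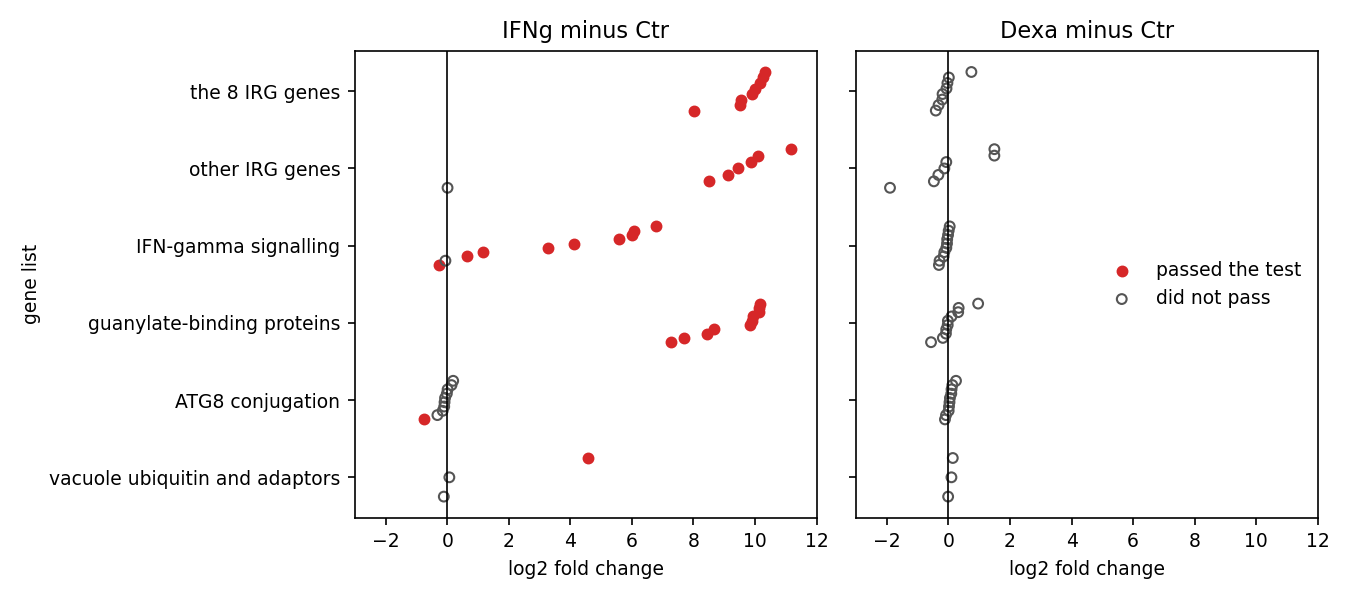
Log2 fold change of each gene tested in the IRG family and in the 5 related lists, in IFN-γ-treated (left) and Dexa-treated OPCs (right) relative to Ctr-OPCs. Filled points passed DESeq2 at an adjusted p under 0.05 and open points did not. The 8 IRG genes and the guanylate-binding proteins lie at 7.28 or above with IFN-γ, the ATG8 conjugation genes lie between -0.75 and 0.19, and no point is filled for Dexa.

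The genes whose level followed the summed IRG level most closely, by Pearson correlation of log2(CPM + 1) over the 11 full libraries, were H2-T23 (r = 0.9995), Gm4951 (0.9995), Gm12185 (0.9994), 9330175E14Rik (0.9994) and Gbp5 (0.9993). These values mainly describe the gap between 4 IFN-γ libraries and 7 others. Gm12185 is annotated across Tgtp1 on the same strand and shares sequence with it.

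The cultures carried the markers of their label and few of immune cells. Summed TPM of 8 OPC markers was 808 to 1886 in Ctr-OPCs, 966 to 1981 in Dexa-treated and 668 to 1443 in IFN-γ-treated OPCs. For 15 microglia and macrophage markers it was 3.601 to 5.74, 4.54 to 5.48 and 5.27 to 7.83 TPM. Tyrobp was at 0 in all IFN-γ libraries and Trem2 at 0 to 2 reads there. T and NK cell markers summed to at most 0.104 TPM in any full library, and Ifng itself had 0 reads in all 11. Endothelial and pericyte markers summed to 0.610 to 0.812 TPM in Ctr-OPCs, 0.714 to 1.499 in Dexa-treated and 0.447 to 0.813 in IFN-γ-treated OPCs. Astrocyte markers were at 149 to 317 TPM in Ctr-OPCs, 308 to 477 in Dexa-treated and 269 to 435 in IFN-γ-treated OPCs. Of the 8, Aldoc gave 61.5 to 144 TPM in Ctr-OPCs and 164 to 243 in IFN-γ-treated OPCs, Gfap gave 0.0329 to 0.327 and 1.29 to 3.27 TPM, and the ranges of the other 6 overlapped between these groups. The 4 neuronal markers summed to 13.4 to 15.9, 17.7 to 20.5 and 27.0 to 60.0 TPM. Most of that sum was the tubulin gene Tubb3, at 9.81 to 11.0 TPM in Ctr-OPCs and 22.6 to 56.1 in IFN-γ-treated OPCs. Syt1 had 0.699 to 1.05 and 1.69 to 2.97 TPM in these groups, whereas Snap25 (1.64 to 3.85 and 1.49 to 3.12) and Rbfox3 (0.289 to 0.482 and 0.159 to 0.528) overlapped between the groups. What part other cells had in the IRG levels was not tested.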

How the data were processed

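Per the labels and the study's methods, libraries were made with a stranded total RNA kit, reads were trimmed, and STAR, Salmon 0.8.2 and DESeq2 were used on GRCm38 (mm10). The authors deposited, as Salmon gave them, an estimated count and a TPM value per transcript for each library, and DESeq2 tables of their own comparisons (fold changes and p-values), which were not used. Transcripts were matched to GENCODE M21 and counts were summed per gene and rounded. The table of Dexa replicate 3 ended after 47855 of 141862 transcripts, so it entered no fit over all genes, although the design had planned all 12 libraries. Its TPM values, scaled to the whole library, are given for the 7 members it lists. The other 11 libraries held 19209063 to 52074652 reads in genes.

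A gene was tested if it had 10 or more counts in 4 or more libraries, with DESeq2 1.42.0 (R 4.3.3; Wald test on the group, no shrinkage, Benjamini-Hochberg adjustment over all genes tested, calls at 0.05). Alternatives were edgeR 4.0.16, TMM factors, other filters, a replicate block, merged genes, other sets of libraries and each library left out. The tests were tried on simulated counts first. Intervals are 1.96 SE. Lists are given by counts and medians without a test. Libraries of a group came from different litters per the labels, which do not say that a replicate number marks a litter. The numbers were taken to pair the libraries because deviations from group means correlated at 0.50 to 0.87 within a number (10 pairs). Between numbers and groups they correlated at -0.80 to 0.69 (30 pairs), highest for replicates 3 and 4, which share a title prefix of unknown meaning in every group. A shared preparation was not tested, and p-values may hold technical spread. All members were named, and other lists only by members that passed or missed the test against most of their list, with up to 4 a list. Members and lists were chosen with earlier results of these data known. Motif and 31-base word searches used RefSeq promoters and GENCODE transcripts as given. Some genes of the lists are not reported here by name.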

Additional observations from a re-analysis of the deposited data

Results flagged for a closer look

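Of 45 sets of 4 libraries looked at (TPM of each member and of the family, transcript shares and the split of the Tgtp pair), 2 had a library far from the other 3 by Dixon's test, about the number that chance gives at 1 in 20. Tgtp1 took 14.6% of the reads of the pair in Ctr replicate 4, against 34.6% to 37.7% in the other Ctr libraries, on 11 of 73 reads. Tgtp2-201 took 99.4% of the Tgtp2 reads in IFN-γ replicate 3, against up to 99.9% in the others.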

How the results depend on the processing

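The 8 members stayed called against Ctr-OPCs and against Dexa-treated OPCs under every alternative run (7 of 7 where genes were merged or Iigp1 was not listed), with log2 fold changes of 7.96 to 10.70 and 7.99 to 11.00. Adjusted p-values reached at most 2.5e-08 and 1.0e-07. None was called between Dexa and Ctr in any of them (adjusted p 0.46 to 1). With the replicate block, which pairs the libraries, no member changed its call.

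Small Dexa changes changed sign in 12 of 167 refits, and the cause was not tested. Leaving out each library gave log2 fold changes of -0.15 to 0.02 (0.023 without Dexa replicate 4) for Irgm1, -0.17 to 0.19 for Igtp, -0.37 to 0.15 for Iigp1, -0.45 to 0.16 for Tgtp1 and -0.14 to 0.11 for Gm12250. The others kept their sign, with 0.21 (without Dexa replicate 1) to 0.96 for Irgm2, -0.86 (without Dexa replicate 1) to -0.05 (without Ctr replicate 3) for Ifi47 and -0.45 to -0.07 (without Ctr replicate 3) for Tgtp2. Iigp1 and Tgtp1 turned positive without Ctr replicate 3, and Iigp1 also without Dexa replicate 4 (0.055). Tgtp1 was 0.047 with the replicate block in DESeq2, and Gm12250 was 0.0021 with every library.

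Counts over all genes moved more, from 2302 (IFN-γ against Ctr), 98 (Dexa against Ctr) and 2345 (IFN-γ against Dexa) in DESeq2. Limited to changes of 1.5 or more on the log2 scale they were 718, 43 and 729. With edgeR the first 2 were 1513 and 22. The replicate block gave 5238, 460 and 5661 in DESeq2 and 5606, 282 and 6045 in edgeR. With every library, over the genes that all tables list whole, they were 834, 23 and 1107, from fewer genes tested. Leaving out each library gave 1577 to 2666, 59 (without Dexa replicate 2) to 112 and 1649 to 2518.

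As a share of summed TPM, scaled for transcript length, the family was 0.000502% in Ctr-OPCs, 0.000485% in Dexa-treated and 0.346% in IFN-γ-treated OPCs. As a share of reads, which is not scaled for length, it was 0.00162%, 0.00152% and 1.007%. With 7SL RNA left out of the total, the shares were 0.00183%, 0.00172% and 1.11%, in the same order of groups. Leaving out each library gave 0.00149% to 0.00172%, 0.00144% to 0.00162% and 0.963% to 1.07%. By TPM, Tgtp1 took 29.3% of the pair in Dexa-treated OPCs. Below about 10 reads, as for Irgm2 and Ifi47 in some Ctr and Dexa libraries, counting error limits the values.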
